A study of Homo sapiens with 4 samples.

Results

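The loci described here are the rows of the deposited ARIEL knockdown table that carry an XLOC identifier in place of a gene. The table has 22361 rows, of which 20125 have an Ensembl gene ID and 2236 an XLOC number. Leaving out XLOC_005968, taken from background knowledge of the study as the knockdown target ARIEL itself, and 2 loci on chromosome Y gave 2233 XLOC loci. RNA came from Jurkat, an established human leukaemia line of T-lineage cells. Both groups were infected with lentivirus and selected with puromycin at 0.7 µg/ml for at least 36 h. The control group of 2 libraries carried an shRNA against GFP and the knockdown group of 2 libraries an shRNA against ARIEL, and cells were collected 72 h after infection. No genotype beyond the line is stated, nothing says how many shRNA sequences were used, and the labels do not tell whether replicates come from separate cultures. The p-values therefore cover the spread among these libraries only, which may be technical.

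Transcript assemblers give an XLOC number to a locus where reads pile up into a transcript model, whether or not a catalogue of genes has an entry there. Such loci can be long non-coding RNAs, RNAs made at enhancers, transcribed repeats, unprocessed introns or extensions of neighbouring genes. Long non-coding RNAs can act in the nucleus on transcription, as ARIEL, an RNA from an enhancer active in T-cell leukaemia, is known to do, and many are present at few copies per cell.

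The table gives these loci no annotation, and whether they lack one elsewhere was not tested. In 0 of the 2233 rows did the name differ from the XLOC number. A list of 30 well-known non-coding RNAs, among them MALAT1, NEAT1, GAS5 and RMRP, was looked up among the Ensembl rows, and 0 had a row by name. Of the 28 with an entry in the table of gene IDs used here, 0 had a row by ID. Whether any XLOC locus covers one of these RNAs cannot be read from the table, which gives a chromosome but no start, end, strand or sequence for a locus. The rows are therefore called XLOC loci here and no gene name is given to any of them.

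Values are regularised log (rlog) expression, a log2 scale on which values are pulled towards the row's mean, most strongly in low rows. Differences understate the change in high rows as well. For XLOC loci from a mean rlog of 13 up, their median ratio to the log2 fold change in the authors' deposited table was 0.56. Levels are not divided by transcript length and depth is unknown. The target row XLOC_005968 had rlog values of 12.02 and 11.91 in control libraries and 10.58 and 10.55 in knockdown libraries. The 8 T-lineage marker genes, CD3D, CD3E, CD3G, CD247, LCK, CD28, CD2 and CD7, had mean rlog values from 12.24 to 16.73. Of the 4 B-cell markers MS4A1 was at 0 and the highest was at 11.10, and of the 4 epithelial markers EPCAM and CDH1 were at 0 and the highest was at 4.69. Among the 4 myeloid markers CSF1R was at 0 and the highest was at 4.37.

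Most XLOC loci were detected, at levels below those of named genes. Exactly 0 in all 4 libraries was recorded for 229 loci (10.3%), against 4135 of 20125 Ensembl rows (20.5%). The detected loci numbered 2004. Their median mean rlog was 6.71, with quartiles of 4.36 and 8.60. The median of detected Ensembl rows was 10.90. An rlog of at least 10 was reached by 227 detected loci (11.3%) and by 57.1% of detected Ensembl rows. These are levels per row and not per length, so they compare how much signal a row collected. The table also has 392 Ensembl rows that GENCODE 29 classes as long non-coding RNA. Of these 203 (51.8%) were at 0, and the detected ones had a median of 3.78. They include 0 of the 30 well-known RNAs looked up above, so they may not represent long non-coding RNAs in general.

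**Figure D1:**
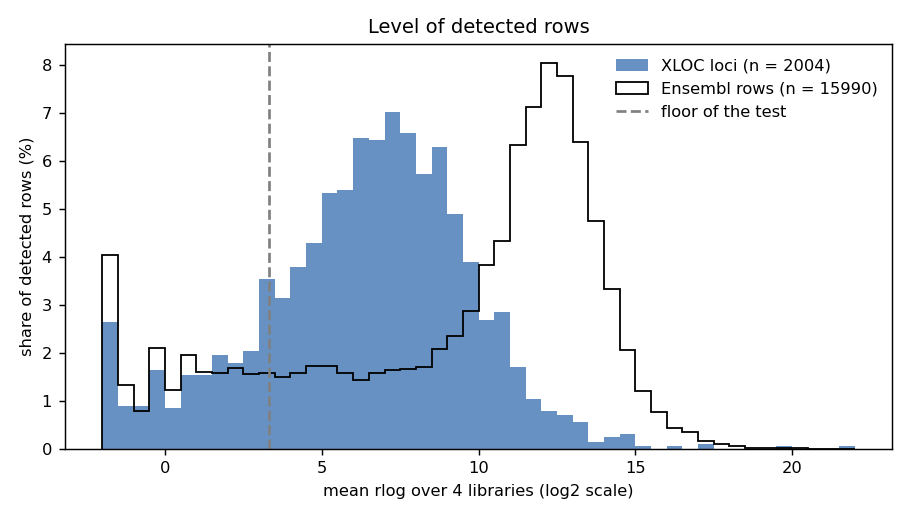
Share of detected rows (%) in narrow bins of the mean rlog over 4 libraries, for XLOC loci (filled bars) and Ensembl rows (outline), with the floor of the test as a dashed line. The XLOC loci centre on a median of 6.71 and the Ensembl rows on 10.90.

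At the lower end, 122 detected loci had a mean rlog below 0 and 237 lay between 0 and the floor of the test. The floor was a mean rlog of log2 of 10, and 1645 loci (73.7% of all XLOC loci) reached it. A set of 175 detected loci shared all 4 values, to 6 decimals, with at least 1 other row of the table. They fell into 82 patterns, the most common of which was held by 18 XLOC loci, and none of them had a mean above 1.92. Just inside the floor were XLOC_029778 on chromosome 2 (mean 3.33), XLOC_008310 on chromosome 11 (3.33) and XLOC_016502 on chromosome 14 (3.34). Just outside it were XLOC_051733 on chromosome 8 (3.30), XLOC_033236 on chromosome 20 (3.30) and XLOC_055227 on chromosome 9 (3.29).

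At the upper end, XLOC_016347 on chromosome 14 had the highest level of any row in the table, named genes included. Its rlog values were 21.35 and 21.46 in control libraries and 21.62 and 21.67 in knockdown libraries. The row ranked second was EEF1A1, the translation elongation factor gene. XLOC_021804 on chromosome 17 ranked 3rd, with 19.42 and 19.59 in control and 19.65 and 19.84 in knockdown libraries. On the linear scale of the rlog values, XLOC_016347 alone made up 2.46% and 2.66% of the summed values of all rows in control, and 2.94% and 3.01% in knockdown. Both loci together made up between 66.3% and 72.2% of the sum over all XLOC loci. The remaining 2231 loci held 1.58% and 1.59% of the total in control, and 1.54% and 1.49% in knockdown.

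The highest pair were both higher in knockdown libraries, by amounts that depended on the libraries and the test. XLOC_016347 differed by 0.24 ± 0.058 (SE, n = 2 per group; limma, adjusted p = 0.000190), and its groups did not overlap. XLOC_021804 differed by 0.24 ± 0.045 (limma, adjusted p = 1.16e-06), with knockdown replicate 1 only just above control replicate 2. Without control replicate 1 the limma call was lost for XLOC_016347 (difference 0.18, adjusted p = 0.155) and for XLOC_021804 (0.16, adjusted p = 0.0758). In the authors' deposited table XLOC_016347 had a log2 fold change of 0.42 ± 0.063 (SE, adjusted p = 7.78e-10) and XLOC_021804 one of 0.33 ± 0.18 (adjusted p = 0.124), which does not pass. Under quantile normalization XLOC_016347 has a difference of 0 by construction, as the highest row of every library.

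Below that pair, 8 more loci complete the 10 highest. XLOC_050678 on chromosome 7 had 17.50 and 17.48 in control and 17.39 and 17.32 in knockdown libraries, a difference of -0.13 ± 0.036 (SE; limma, adjusted p = 0.000779). That call was lost without knockdown replicate 2 (-0.10, adjusted p = 0.0643). XLOC_033046 on chromosome 20 fell as well, from 14.87 and 14.88 to 14.70 and 14.69, a difference of -0.18 ± 0.032 (limma, adjusted p = 1.28e-07). Its control and knockdown values were clearly apart, with replicates 0.01 from each other. The other 6 did not pass the limma test. XLOC_008614 on chromosome 11, at 17.39 and 17.40 in control and 17.44 and 17.34 in knockdown libraries, differed by -0.0031 ± 0.036, and passed only under quantile normalization (-0.076, limma adjusted p = 0.0125). XLOC_004851 and XLOC_005047 on chromosome 1 differed by 0.0091 ± 0.032 and -0.013 ± 0.032, and XLOC_009892 on chromosome 11 by -0.022 ± 0.032. XLOC_021573 (0.066 ± 0.033) and XLOC_022473 (0.070 ± 0.032), both on chromosome 17, had limma adjusted p of 0.0893 and 0.0597. XLOC_022473 passed with quantile normalization (0.0137), with median centring (0.0432) and with the replicate number as a block (0.0126), and XLOC_021573 with that block (0.0375). Both passed in the authors' deposited table, at 0.0305 and 0.0330.

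Of the 1645 tested XLOC loci, 132 rose (8.02%) and 320 fell (19.5%) in ARIEL knockdown libraries, and 1193 were not called (limma, adjusted p under 0.05). Over all 14601 rows tested, 22.1% rose, 22.4% fell and 44.4% were called in either direction. Falls thus made up 70.8% of the called XLOC loci and 50.3% of all called rows. These shares are not matched for level, and XLOC loci were lower in level. Falls outnumbered rises among Ensembl rows too from the floor to a mean rlog of 5 (63 and 27), from 5 to 7 (173 and 100) and from 7 to 9 (267 and 192). From 9 up, rises outnumbered falls among Ensembl rows. The median difference of tested XLOC loci was -0.019, against 9.3e-05 over all rows tested. A difference below 0 was seen in 986 loci (59.9%). The 320 falls ranged from -0.96 to -0.050 with a median of -0.16, and the 132 rises from 0.059 to 0.44 with a median of 0.14. The difference between XLOC loci and other rows was not itself tested. In bulk RNA, fewer cells that make a transcript and less of it per cell cannot be told apart.

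The authors' deposited table, made from the same 4 libraries, gave the same tilt. It has an adjusted p for 1631 XLOC loci, of which 83 (5.09%) passed 0.05 as higher and 221 (13.5%) as lower. Over the 14551 rows with an adjusted p, 20.1% were higher and 19.3% lower in the authors' deposited table, 39.4% in all. Of the deposited calls on XLOC loci 99.0% were also limma calls, and 66.6% of limma calls were also deposited calls. The 301 shared calls all had the same direction, as did all 5663 calls shared over the whole table. Changes of at least 2-fold at that threshold in the authors' deposited table numbered 17 lower and 2 higher among its 1631 XLOC loci. Over its 14551 rows with an adjusted p they numbered 119 (0.818%) and 43 (0.296%). An rlog difference of at least log2 of 1.5 was reached by 4 falls and 0 rises among the 1645 tested loci. As rlog differences are shrunken, this bar is stricter than a 1.5-fold change. The largest rise on the rlog scale, XLOC_024681, missed it but was 2.71-fold higher in the authors' deposited table. Among all 14601 rows tested, 51 (0.349%) fell and 14 (0.0959%) rose by that much.

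These counts depend on sharing the spread between rows. When the spread of each row was taken from that row alone, with 2 residual degrees of freedom, limma called 0 XLOC loci. In that fit 340 had an unadjusted p under 0.05 (105 higher and 235 lower). The matching counts over all rows are not given here, so these counts show nothing particular to XLOC loci. The count of rises was 83 without control replicate 1, and the count of falls was 211 without ARIEL knockdown replicate 2. Groups did not overlap in 952 of the 1645 tested loci (57.9%), against 70.7% of all rows tested. That was so in 446 of the 452 called loci, beside 6434 of the 6488 called rows of the whole table. Between replicates the tested XLOC loci had a median gap, replicate 2 minus replicate 1, of 0.0067 in control and -0.0049 in knockdown libraries. The median size of the gap without its sign was 0.035 in each group, and that of the knockdown difference was 0.052.

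**Figure D2:**
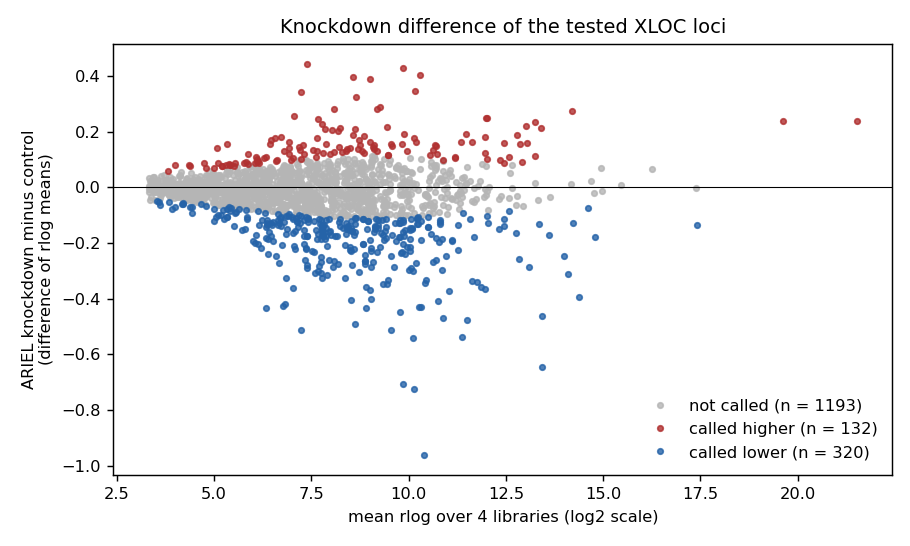
Difference of rlog means, ARIEL knockdown minus control, against the mean rlog for the 1645 tested XLOC loci. Loci called higher (132) are red, those called lower (320) blue and the others grey, and the falls reach -0.96 where the rises reach 0.44.

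The shares called varied with level. From a mean rlog of 13 up, 12 of 31 XLOC loci fell (38.7%) and 8 rose (25.8%), beside 25.0% and 29.7% of Ensembl rows. From 11 to 13, 22 of 85 loci fell (25.9%) and 17 rose (20.0%), beside 25.2% and 28.2% of Ensembl rows. Between a mean rlog of 9 and 11, 93 of 287 XLOC loci fell (32.4%) and 27 rose (9.41%), with a median difference of -0.049. Ensembl rows of that band had 22.1% lower and 24.0% higher and a median of 0.0046. Between 7 and 9, 22.2% of 514 XLOC loci fell and 7.59% rose, while Ensembl rows had 23.6% and 16.9%. Between 5 and 7, 13.5% of 474 loci fell and 7.38% rose, beside 17.1% and 9.90% of Ensembl rows. From the floor to 5, where the transform shrinks most, 15 of 254 loci fell (5.91%) and 6 rose (2.36%), beside 7.51% and 3.22% of Ensembl rows. In the band from 9 to 11 the replicate gap of XLOC loci had a median of 0.016 in control and -0.0047 in knockdown libraries. Of the 100 tested Ensembl rows classed as long non-coding RNA, 14 fell and 11 rose, with a median of 0.0062. In the authors' deposited table that class had 9 rows lower and 4 higher, so that 69.2% of its calls were lower, beside 72.7% for XLOC loci. Length and base composition of the loci were not analysed here, and their part in the tilt was not tested.

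**Figure D3:**
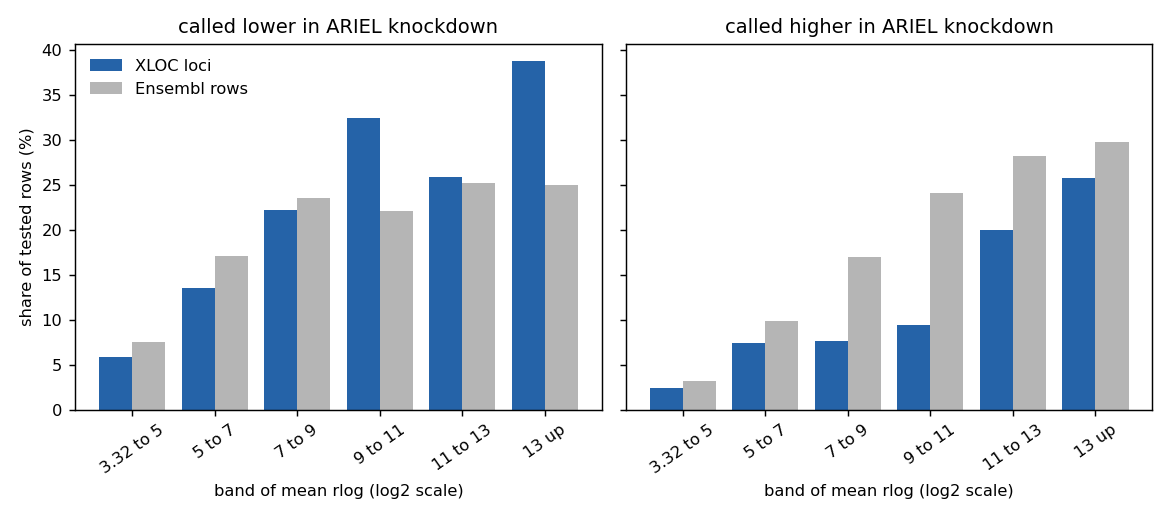
Share of tested rows (%) called lower (left) and higher (right) in ARIEL knockdown libraries, by band of mean rlog, for XLOC loci (blue) and Ensembl rows (grey). Falls take 38.7% of the 31 XLOC loci from 13 up and 32.4% of the 287 from 9 to 11, beside 25.0% and 22.1% of Ensembl rows. From 11 to 13 falls take 25.9% and 25.2%, and in each band below 9 they are less frequent among XLOC loci. Rises are less frequent among XLOC loci in every band.

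The largest fall was XLOC_021950 on chromosome 17. Its rlog values were 10.83 and 10.91 in control libraries and 9.87 and 9.94 in knockdown libraries, a difference of -0.96 ± 0.045 (SE; limma, adjusted p = 5.08e-97). Both knockdown values lay far below both control values. The authors' deposited table puts the fall at 3.80-fold, a log2 fold change of -1.93 ± 0.10 (SE). XLOC_024788 on chromosome 18 went from 10.44 and 10.55 to 9.79 and 9.74, a difference of -0.73 ± 0.046. XLOC_032272 on chromosome 2 went from 10.24 and 10.19 to 9.54 and 9.48, a difference of -0.71 ± 0.047. Both were 2.78-fold lower in the authors' deposited table.

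XLOC_056488 on chromosome X was the most abundant of the 10 largest falls. It had 13.76 and 13.75 in control libraries and 13.13 and 13.10 in knockdown libraries, with replicates within 0.03 of each other and a difference of -0.64 ± 0.033 (SE; limma, adjusted p = 4.84e-83). The authors' deposited table has it 2.25-fold lower. The 3 loci that follow were on chromosomes 9, 13 and 3. XLOC_054933 had 10.41 and 10.37 in control and 9.82 and 9.88 in knockdown libraries. XLOC_014408 had 11.69 and 11.57 against 11.13 and 11.06, and XLOC_038104 had 9.85 and 9.77 against 9.30 and 9.30. Their differences were -0.54 ± 0.046, -0.54 ± 0.040 and -0.51 ± 0.048. These 10 falls, like the 10 rises, were picked among loci whose groups do not overlap.

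The lowest row of the 10 falls was XLOC_016686 on chromosome 14, with 7.50 and 7.48 in control and 6.97 and 6.99 in knockdown libraries and a difference of -0.51 ± 0.043. Its fall of 3.38-fold in the authors' deposited table was second to that of XLOC_021950 among these 10. XLOC_039068 on chromosome 3 had 8.85 and 8.90 against 8.39 and 8.37, a difference of -0.49 ± 0.048. XLOC_004017 on chromosome 1 had 11.76 and 11.69 against 11.30 and 11.20, a difference of -0.48 ± 0.039. Their values in the authors' deposited table were 2.32-fold and 1.85-fold lower. The median ratio of the rlog difference to the log2 fold change in the authors' deposited table was 0.18 for XLOC loci below a mean rlog of 5, 0.36 between 7 and 9, and 0.56 from 13 up.

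The rises were smaller. XLOC_024681 on chromosome 18 led them, with 7.16 and 7.18 in control libraries and 7.64 and 7.59 in knockdown libraries, a difference of 0.44 ± 0.044 (SE; limma, adjusted p = 2.41e-22). Its rise was 2.71-fold by the authors' deposited table. XLOC_000075 on chromosome 1 went from 9.65 and 9.63 to 10.02 and 10.12, a difference of 0.43 ± 0.047. XLOC_030133 on chromosome 2 went from 10.07 and 10.10 to 10.51 and 10.47, a difference of 0.40 ± 0.046. In each of these 3 loci both knockdown values exceeded both control values by several times the gap between replicates.

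XLOC_022512 on chromosome 17 had 8.32 and 8.41 in control and 8.76 and 8.75 in knockdown libraries, a difference of 0.39 ± 0.048. XLOC_032966 on chromosome 20 had 8.78 and 8.86 against 9.17 and 9.25, a difference of 0.39 ± 0.049. XLOC_005574, on chromosome 10 like ARIEL, had 10.01 and 10.00 against 10.30 and 10.40, a difference of 0.35 ± 0.046. The other 4 of the 10 were XLOC_023776 on chromosome 17 (0.34 ± 0.043), XLOC_009237 on chromosome 11 (0.32 ± 0.048), XLOC_033155 on chromosome 20 (0.29 ± 0.049) and XLOC_008653 on chromosome 11 (0.28 ± 0.049). XLOC_008653 had the widest control gap of these 4, with 8.99 and 9.13, below knockdown values of 9.38 and 9.30. The 10 rises ranged in the authors' deposited table from 1.53-fold (XLOC_008653) to 2.71-fold (XLOC_024681), with XLOC_023776 at 2.15-fold.

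**Figure D4:**
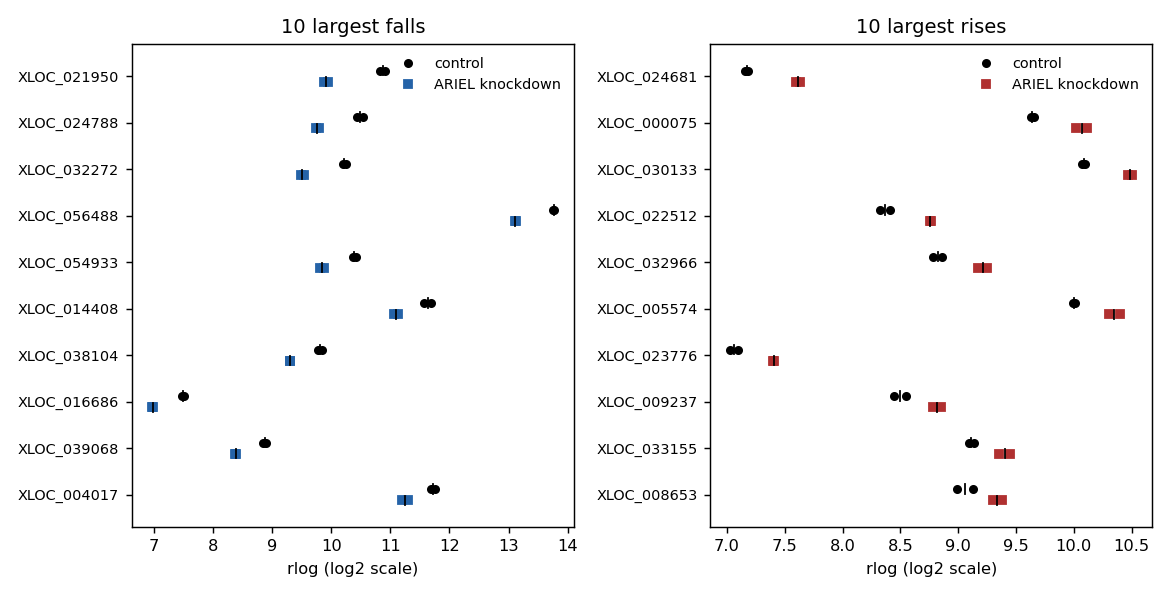
Values (rlog, log2 scale) in each library of the 10 largest falls (left) and 10 largest rises (right) among called XLOC loci whose groups do not overlap. Circles are control libraries, squares knockdown libraries and short vertical lines the mean of each pair, and the differences run from -0.96 (XLOC_021950) to 0.44 (XLOC_024681); that circles and squares lie apart follows from how the loci were picked.

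A few loci varied widely between replicates, which the shared spread does not allow for. XLOC_029543 on chromosome 2 had 8.86 and 8.34 in control libraries and 8.37 and 8.37 in knockdown libraries, so control replicate 1 alone stood high and the groups overlapped. Its difference of -0.22 ± 0.048 was called (limma, adjusted p = 1.73e-05), though not with robust moderation (0.595) or quantile normalization (0.119), and the sign turned without control replicate 1 (0.033). Its adjusted p was 0.404 in the authors' deposited table. XLOC_030062 on chromosome 2 had 11.07 and 11.34 in control libraries around knockdown values of 11.23 and 11.21. XLOC_022989 on chromosome 17 likewise had 9.19 and 8.93 around 9.06 and 9.03. The last 2 were not called with all libraries. Leaving out 1 control library gave XLOC_030062 a called difference of -0.11 or 0.15 by which one was left out, and XLOC_022989 a difference of 0.11, not called, or -0.15, called.

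The loci were spread over all 22 autosomes and chromosome X. Chromosome 2 held most, with 215 loci of which 167 were tested, followed by chromosome 1 with 203 and 153. Chromosome 18 held fewest, 41 with 23 tested. Set against tested Ensembl rows, tested XLOC loci were sparsest on chromosome 19, with 5.42 per 100, and densest on chromosome 21, with 27.3 per 100, and chromosome 13, with 24.1 per 100. The share of loci at 0 in every library ran from 5.48% on chromosome 20 to 17.1% on chromosome 18. On chromosome 10 it was 17.0% of 106.

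Falls outnumbered rises on 21 of the 23 chromosomes. The exceptions were chromosome 17, with 13 of each among 92 tested, and chromosome 19, with 4 falls and 5 rises among 52. Among Ensembl rows the share lower also exceeded the share higher, except on chromosomes 7, 9, 11, 16, 17, 19, 20, 21 and 22. Chromosome 7 had the widest margin, with 27 falls and 3 rises among 87 tested loci and a median difference of -0.033. These were 31.0% and 3.45% of its tested loci, beside 19.1% and 21.0% of its Ensembl rows. Chromosome 3 had 27 falls and 7 rises among 99, or 27.3% and 7.07%, and its Ensembl rows had 27.4% lower and 20.9% higher. The median difference of XLOC loci was below 0 on 21 chromosomes and that of Ensembl rows on 12. On 20 chromosomes the XLOC median was below the Ensembl median. Ensembl rows of chromosomes 16, 17, 19 and 22 had medians of 0.040, 0.026, 0.043 and 0.032, and the XLOC loci there 0.0035, -0.0097, 0.0046 and -0.014. Across the 23 chromosomes the pairs of medians had a Pearson's r of 0.56 and a Spearman's rho of 0.50. This describes these 4 libraries, which both sets of rows share.

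**Figure D5:**
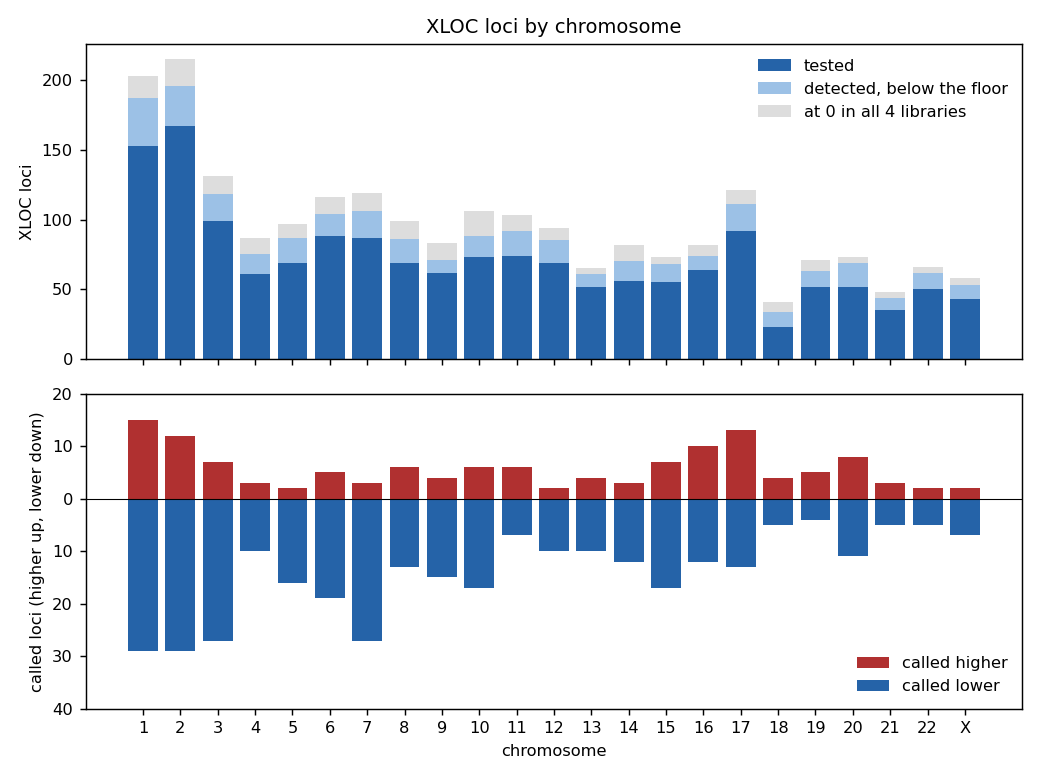
Number of XLOC loci on each chromosome (top), split into tested, detected below the floor and at 0 in all 4 libraries, and number called higher (up, red) and lower (down, blue) in ARIEL knockdown libraries (bottom). Chromosome 2 holds most loci (215), and falls exceed rises everywhere but on chromosomes 17 and 19.

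On chromosome 10, which carries ARIEL, 17 of 73 tested loci fell (23.3%) and 6 rose (8.22%), with a median of -0.035. Ensembl rows of that chromosome had 26.9% lower and 18.3% higher. Its 3 highest loci all fell by small amounts. XLOC_007535 had 13.71 and 13.67 in control and 13.51 and 13.53 in knockdown libraries, a difference of -0.17 ± 0.032 (SE; limma, adjusted p = 1.20e-06). XLOC_005522 differed by -0.14 ± 0.035 and XLOC_006221 by -0.11 ± 0.035. The call on XLOC_006221 was lost without control replicate 2 (-0.086, adjusted p = 0.0753) and without knockdown replicate 2 (-0.073, adjusted p = 0.255).

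XLOC numbers run in blocks, 1 per chromosome, with 0 overlaps between blocks, but the table does not say whether their order within a chromosome follows position. The locus with the number nearest the target, XLOC_005966, had 10.63 and 10.68 in control and 10.60 and 10.56 in knockdown libraries, a difference of -0.076 ± 0.044 that did not pass (limma, adjusted p = 0.153). Of the 6 nearest numbers, chosen after their values were seen, 1 was at 0 in every library (XLOC_005943) and 1 was called. The called one, XLOC_005928, had 8.20 and 8.24 against 8.33 and 8.37, a difference of 0.12 ± 0.048 (limma, adjusted p = 0.0220). Its call was lost without control replicate 1 (0.11, adjusted p = 0.115) and without knockdown replicate 2 (0.10, adjusted p = 0.192). It did not pass in the authors' deposited table either (0.0943).

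Over all tested pairs, the differences of loci with close numbers were weakly related. Pearson's r was 0.22 over 58 pairs with adjoining numbers, 0.14 over 373 pairs whose numbers differ by 2 to 10, and 0.043 over 783 pairs further apart on 1 chromosome, all in the same 4 libraries. Among 431 pairs of consecutive tested loci whose numbers differ by at most 10 on 1 chromosome, both were called in 36. Both fell in 25 of these, both rose in 7 and they went opposite ways in 4. Among the pairs further apart, both were called in 67, with 37 falling together, 4 rising together and 26 opposite. A locus can be in 2 pairs, and reads of close loci may come from 1 transcript, so such pairs are not independent. The difference between the kinds of pair was not tested. Of tested XLOC loci 27.5% were called, and 70.8% of those calls were falls, so some pairs would be called alike in any order. Pairs of Ensembl rows were not counted, so these counts show nothing particular to XLOC loci.

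There were 3 runs of at least 3 close numbers called one way, singled out after their values were seen. How many such runs the shares called would give in any order was not worked out. The longest was 4 rising loci on chromosome 15. XLOC_017281 had 14.07 and 14.04 in control and 14.38 and 14.27 in knockdown libraries, a difference of 0.27 ± 0.032 (SE; limma, adjusted p = 3.26e-16). XLOC_017287 had 13.27 and 13.30 against 13.52 and 13.49, a difference of 0.21 ± 0.033. Between them in number, the low rows XLOC_017283 (0.085 ± 0.033) and XLOC_017286 (0.16 ± 0.038) also passed. The call on XLOC_017283 was lost without control replicate 1 (0.035, adjusted p = 0.508) or knockdown replicate 2 (0.067, adjusted p = 0.221), and that on XLOC_017286 without knockdown replicate 1 (0.10, adjusted p = 0.0729). In the authors' deposited table XLOC_017281, XLOC_017286 and XLOC_017287 were 1.40-fold, 1.49-fold and 1.31-fold higher, and XLOC_017283 did not pass (adjusted p = 0.194).

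The other 2 runs fell. On chromosome 7, XLOC_051478 had 6.15 and 6.14 in control and 5.94 and 5.94 in knockdown libraries, and XLOC_051480 had 7.51 and 7.54 against 7.22 and 7.27. Their differences were -0.20 ± 0.036 and -0.28 ± 0.044, and the authors' deposited table has them 1.86-fold and 1.84-fold lower. XLOC_051484, at -0.062 ± 0.027, passed barely (limma, adjusted p = 0.0498) and lost its call without any 1 of the 4 libraries (adjusted p 0.0683 to 0.221). On chromosome 8, XLOC_052653 had 8.68 and 8.68 against 8.40 and 8.40, a difference of -0.28 ± 0.048. Its neighbours in number, XLOC_052651 (-0.13 ± 0.040) and XLOC_052654 (-0.11 ± 0.042), passed here but not in the authors' deposited table (adjusted p = 0.0559 and 0.125). XLOC_052651 lost its limma call without control replicate 2 (-0.086, adjusted p = 0.122). XLOC_052654 lost it without control replicate 1 (-0.059, adjusted p = 0.354), knockdown replicate 1 (-0.11, adjusted p = 0.0976) or knockdown replicate 2 (-0.12, adjusted p = 0.0726).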

How the data were processed

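The data are 4 strand-specific RNA-seq libraries of Jurkat cells with paired reads of 100 bases, per the labels' protocols. Build hg19 and the tools DESeq2 1.12.4, HTSeq 0.6.1 and STAR 2.5.2a stand in the submitters' processing notes, without roles. How the XLOC loci were assembled, which annotation was used and what the size factors rest on is not given in the sources used here. The authors deposited, per the file headers, an rlog value (log2 scale) per row and library, and for the comparison a log2 fold change, its standard error, a test score, a p-value and an adjusted p. Counts and spike-in values were not analysed here, so depth and counting error are unknown.

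The 14601 rows whose mean rlog reached log2 of 10 were fitted in R 4.3.3 with limma 3.58.1 (lmFit, then eBayes with a level trend), with no pseudocount and Benjamini-Hochberg adjustment over all of them at 0.05; calls and SEs come from this fit, and SD and n refer to 2 libraries per group. The prior degrees of freedom were infinite, so rows of a level share 1 spread. The fit was tested on simulated normal values whose spread followed level alone, as the fit assumes. That test cannot show whether too many real rows are called. GENCODE 29 gave the class of 19320 Ensembl rows, matched by gene ID. Descriptions used Python 3.11.15, pandas 2.3.3 and numpy 2.4.6.

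Named loci were the 10 highest and the 10 largest rises and falls, by rlog difference, among called loci whose groups do not overlap. The 3 highest on chromosome 10, the 3 on each side of the floor and the 3 with the widest replicate gap were also named. The members and lists were chosen with earlier results of these data known. Alternatives were other floors, scalings, poolings of the spread and thresholds, the replicate number as a block, and leaving out each library.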

Additional observations from a re-analysis of the deposited data

How the results depend on the processing

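The median difference of tested XLOC loci, -0.019, was negative under every alternative run. It was -0.0075 with no floor, -0.0059 with quantile normalization, -0.013 with median centring and -0.063 on the authors' deposited log2 fold change. With 1 library left out it was between -0.021 and -0.014. The median over all rows fitted moved as well, to -0.00063 with no floor, 0.0064 with quantile normalization and 0.0058 with median centring. The count of rises, 132, was 78 at an adjusted p under 0.01, 83 by the authors' deposited adjusted p and 83 to 134 with 1 library left out. The count of falls, 320, was 211 to 292 with 1 library left out. Both counts were 0 with each row's own variance (limma, adjusted p under 0.05), with 340 loci at an unadjusted p under 0.05. Counts over all rows with that variance are not given here. Falls made up 70.8% of calls, 61.3% with quantile normalization (245 falls, 155 rises) and 66.4% with median centring (291 and 147). With the replicate number as a block, 335 loci fell and 144 rose. The numbers are not stated to mark a shared culture or day, and same-numbered libraries deviated together with a correlation of 0.198 over all tested rows and 0.058 over XLOC loci; that block moved XLOC_021573 and XLOC_022473 past the threshold (adjusted p 0.0375 and 0.0126).

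Over the loci named and their alternatives, 517 values kept direction and call, 69 lost the call, 7 gained it and 14 turned sign. All 14 were with uncalled or wide-gap loci. A change of floor, spread or block alone leaves a locus's difference as it is, so its sign could not turn there. The 517 include loci not called in the main fit that stayed uncalled. Of the 69 losses, 39 came with each row's own variance, under which 0 XLOC loci were called. With 1 library left out the loci that turned ranged from -0.056 to 0.050 (XLOC_008614), -0.036 to 0.055 (XLOC_004851), -0.053 to 0.027 (XLOC_005047), -0.052 to 0.0080 (XLOC_009892), -0.0067 to 0.017 (XLOC_029778), -0.027 to 0.015 (XLOC_008310), -0.48 to 0.033 (XLOC_029543), -0.11 to 0.15 (XLOC_030062) and -0.15 to 0.11 (XLOC_022989). Median centring gave 0.0026 for XLOC_008614. The cause of these changes was not tested. With unknown depth, no limit can be given for loci at 0.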
